A study of Mus musculus with 2 samples.

Results

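The 45 genes described here encode the ATPases and subunits of the SWI/SNF (BAF), ISWI, CHD and INO80 families of ATP-dependent chromatin remodelers, with the related ATPases Atrx and Hells. They were chosen by name, and a locus was taken where its list of Ensembl identifiers held the identifier of a chosen gene. All 45 were found, in 45 different loci among 34624 loci in all. The data are RNA-seq of whole mouse embryos collected at embryonic day 10.5 from crosses of CBA/Ca and C57Bl/10 mice, with no treatment. There was 1 group of 2 replicates, so no condition could be set against another, and the comparisons below are between genes within the same embryo RNA. Nothing in the labels tells 1 embryo from a pool as the source of a replicate, so the spread between replicates may be partly technical. The deposited read counts summed over all loci to 18318181 in replicate 1 and to 117522171 in replicate 2.

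Chromatin remodelers use ATP to slide, evict or exchange nucleosomes, and each family does so through a catalytic ATPase held in a multi-subunit complex. BAF complexes are assembled from interchangeable paralogues. In the mouse nervous system, dividing progenitors carry Actl6a, Phf10 or Dpf2, and Ss18, and these are exchanged for Actl6b, Dpf1 or Dpf3, and Ss18l1 as neurons leave the cell cycle. ISWI enzymes space nucleosomes, the CHD family includes the ATPases of the NuRD deacetylase complex, and the INO80 family handles the histone variant H2A.Z.

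Levels are RPKM, reads scaled by transcript length in kilobases and by library size, as the authors deposited them, and pairs of values are given for replicate 1 and then replicate 2. Detected means that both replicates reached at least 1 RPKM. Of the 45 remodeler genes 44 were detected, against 49.4% of all loci and 65.1% of protein-coding loci. Their median level was 80.0 and 70.7 RPKM, against 21.6 and 15.7 RPKM for all detected loci and 26.3 and 19.1 RPKM for detected protein-coding loci. In 41 of the 45 the level was 10 RPKM or more in both replicates. The share of all loci at 10 RPKM was not computed, and the medians of detected loci given above also exceed 10 RPKM. Chd4, the main ATPase of NuRD, had 726 and 1059 RPKM, and 0.471% of all loci had a higher mean. Atrx, which deposits histone H3.3 together with Daxx, had 767 and 854 RPKM. Smarce1, the HMG-box subunit of BAF, had 513 and 671 RPKM. These 3 genes stood above the other 42 in both replicates. At the other end lay Chd5 with 0.638 and 0.625 RPKM and Actl6b with 1.34 and 1.70 RPKM, and no other remodeler gene was below 6 RPKM in either replicate. In RNA of whole embryos, fewer cells of a type and less RNA per cell cannot be told apart.

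**Figure D1:**
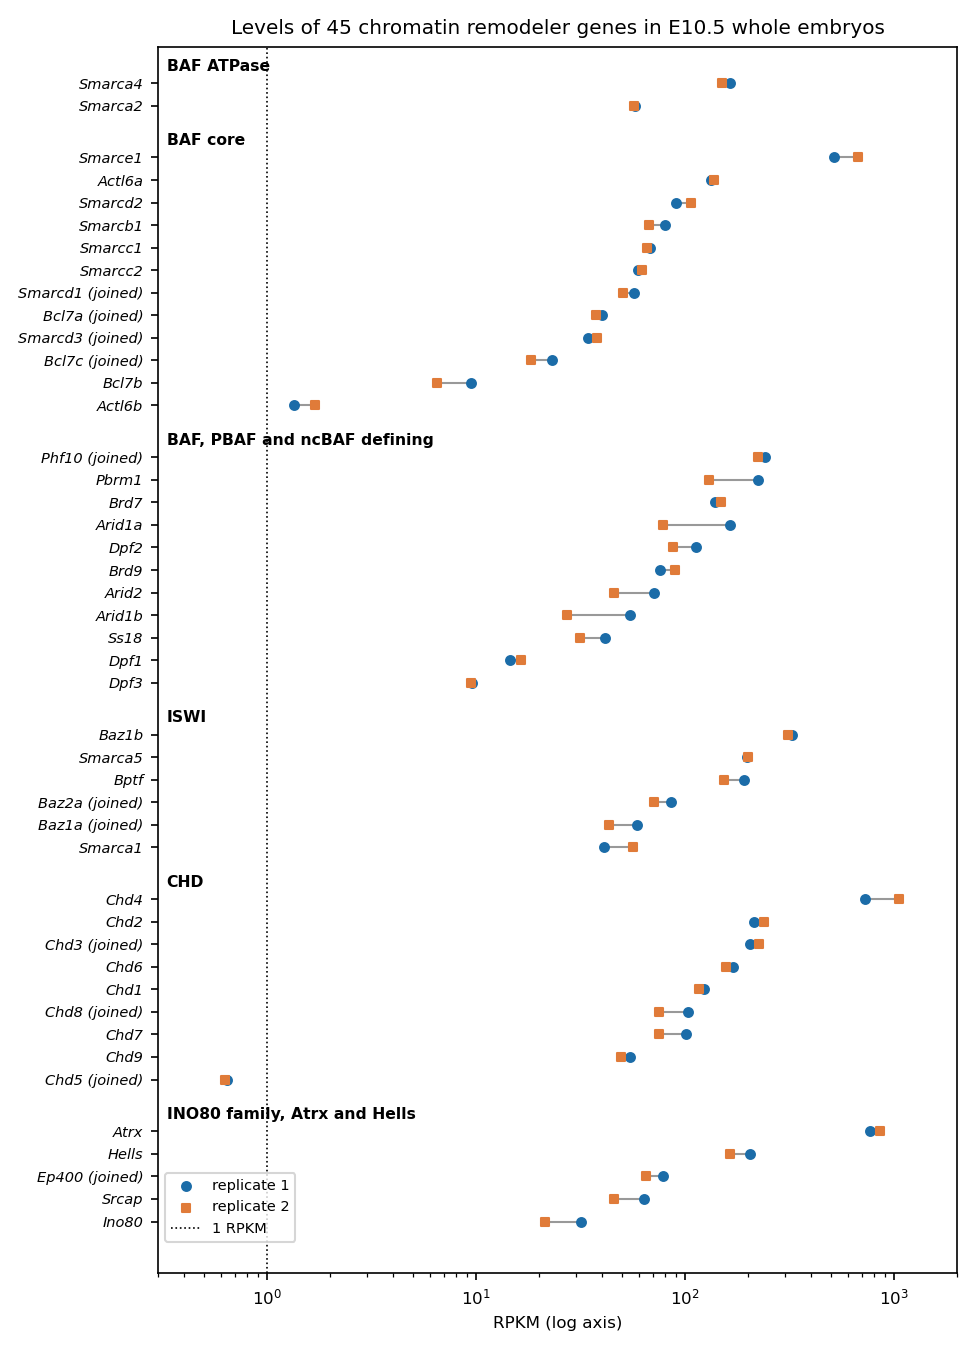
RPKM (log axis) of the 45 remodeler genes, grouped by complex and ordered by mean, with 1 point per replicate and a line joining both; the dotted line marks 1 RPKM, and joined loci also hold another gene. Chd4, Atrx and Smarce1 lie above 500 RPKM in both replicates, and Chd5 is the only gene left of the dotted line.

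The neuronal paralogues of BAF were all lower than their progenitor counterparts. Actl6b, the neuronal actin-related subunit also called BAF53b, had 1.34 and 1.70 RPKM from 27 and 174 reads. The counting error alone gives 95% Poisson intervals of 0.885 to 1.95 and 1.46 to 1.97 RPKM for it. Its progenitor counterpart Actl6a, or BAF53a, had 132 and 137 RPKM from 2020 and 12075 reads, so the values of the pair did not overlap. Actl6b was 98.5-fold lower than Actl6a in replicate 1 and 80.6-fold lower in replicate 2. Actl6b therefore made up 1.12% ± 0.16 (SD, n = 2) and Actl6a 98.9% ± 0.16 of the summed RPKM of the pair.

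The promoters of this pair are shown because both hold many CG dinucleotides although the levels lie so far apart. They run from 250 bases before to 50 bases after the start of the gene, as RefSeq gives them on GRCm38.p6, at chr5:137553296-137553595 for Actl6b and chr3:32708296-32708595 for Actl6a, both on the plus strand. Capitals mark CG.
Actl6b promoter: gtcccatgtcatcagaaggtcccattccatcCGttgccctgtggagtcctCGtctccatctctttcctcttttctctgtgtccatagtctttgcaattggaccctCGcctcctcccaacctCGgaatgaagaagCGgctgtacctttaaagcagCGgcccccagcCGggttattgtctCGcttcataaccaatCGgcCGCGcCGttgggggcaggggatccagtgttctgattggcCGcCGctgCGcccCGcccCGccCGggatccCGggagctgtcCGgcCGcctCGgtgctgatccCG
Actl6a promoter: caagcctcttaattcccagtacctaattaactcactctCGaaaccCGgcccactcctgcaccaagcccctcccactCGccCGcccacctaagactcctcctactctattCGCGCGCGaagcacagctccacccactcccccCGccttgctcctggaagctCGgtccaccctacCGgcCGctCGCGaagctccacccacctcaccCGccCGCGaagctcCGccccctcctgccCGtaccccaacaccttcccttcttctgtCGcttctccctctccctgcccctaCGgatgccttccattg
The Actl6b window held 23 CG and the Actl6a window 21, against a median of 7 over 32851 promoters of the same length.

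In mouse neurons Actl6a is known to be repressed through its 3′ UTR by miR-9* (now miR-9-3p) and miR-124. The mature miR-9-3p and its match in Actl6a are shown because the match lies in Actl6a and not in Actl6b. The miRNA is from RefSeq on GRCm38.p6 with its seed (bases 2 to 8) in capitals. The target is from the GENCODE vM21 transcript with the complement of the seed in capitals.
miR-9-3p: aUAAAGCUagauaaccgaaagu
Actl6a 3′ UTR site: tcaacgtctgtAGCTTTAgtacactcagga
The 371-base 3′ UTR of Actl6a held 1 such match, starting at its base 38, and the 196-base 3′ UTR of Actl6b held 0. Among 16421 genes with a 3′ UTR at least as long, 2.80% had a match in the first 371 bases. A match is a description of letters and not evidence of a working site. The locus that holds Mir9-2 together with the non-coding gene C130071C03Rik had 65.6 and 67.2 RPKM, and that of Mir9-3 had 5.67 and 13.0 RPKM from 7 and 91 reads. These loci were chosen after their values were seen, and their reads stand for host or precursor RNA, not the mature miRNA.

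The double PHD finger subunits, of which one sits in each BAF or PBAF complex, followed the same order. Dpf1, a neuronal subunit known as BAF45b, had 14.5 and 16.4 RPKM. Dpf3, known as BAF45c and also needed in mouse heart and skeletal muscle, had 9.57 and 9.49 RPKM. Of the progenitor subunits, Phf10 (BAF45a) had 241 and 224 RPKM and Dpf2 (BAF45d) had 113 and 87.1 RPKM. Neither neuronal gene overlapped either progenitor gene. Dpf1 made up 4.36% ± 0.72 (SD, n = 2) and Dpf3 2.67% ± 0.20 of the summed RPKM of the 4 genes, against 65.1% ± 1.99 for Phf10 and 27.9% ± 2.91 for Dpf2. The share of Dpf1 was 10.8% ± 0.11 per kilobase of the longest coding transcript. The Phf10 locus also holds the protein-coding gene 1600012H06Rik, so its level is that of both genes. Ss18l1, the neuronal subunit also called CREST, had 8.46 and 7.37 RPKM, against 41.4 and 31.3 RPKM for its progenitor counterpart Ss18.

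Differences between genes were taken as log2(RPKM + 1) of the first minus the second within each replicate. A difference was called when it had the same sign in both replicates and its mean exceeded 2 SD of the replicate-to-replicate log2 ratios of loci at that level, the larger limit of the 2 genes being used. Even with 2 against 2 unpaired values the smallest exact two-sided p is 0.33, so no p-value is given for a pair. All 6 neuronal minus progenitor pairs were called, all with the neuronal gene lower. This rule calls 66.7% of all pairs of detected loci and 65.5% of pairs of detected protein-coding loci, so a call by itself is common. The differences were -5.75 ± 0.11 for Actl6b minus Actl6a (SD, n = 2, limit 1.24), -3.83 ± 0.19 for Dpf1 minus Phf10 and -4.47 ± 0.06 for Dpf3 minus Phf10. Against Dpf2 they were -2.61 ± 0.38 for Dpf1 and -3.25 ± 0.26 for Dpf3, and Ss18l1 minus Ss18 gave -2.06 ± 0.15. By RPKM, Actl6b minus Actl6a was thus the widest of the 6 and Ss18l1 minus Ss18 the narrowest. The Dpf1 differences were smaller by reads per kilobase of the longest coding transcript, at -2.29 against Phf10 and -1.46 against Dpf2, and Dpf1 minus Dpf2 was then the narrowest, with Ss18l1 minus Ss18 at -1.99. The pairs that share Phf10 or Dpf2 are not independent of each other.

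Markers of neurons and their progenitors were read beside these pairs. All 5 neural progenitor markers were detected, with summed levels of 630 and 719 RPKM, from Hes5 with 6.83 and 3.99 RPKM to Nes with 284 and 318 RPKM. All 5 markers of young neurons were detected, with sums of 672 and 764 RPKM, of which 343 and 373 RPKM came from the Nefl locus, joined with the protein-coding gene Nefm. Elavl3 was lowest among them with 14.6 and 9.01 RPKM, and Tubb3 had 146 and 164 RPKM. Of 5 markers of mature neurons 4 were detected, with sums of 24.6 and 23.4 RPKM. The exception was the vesicular glutamate transporter gene Slc17a7 with 0.198 and 0.146 RPKM, and no marker of the 3 lists was at 0. Snap25, the highest of the mature neuron markers by mean, had 7.79 and 7.12 RPKM, a level that the progenitor marker Hes5 did not exceed. The neuronal BAF paralogues ran from Actl6b with 1.34 and 1.70 RPKM to Dpf1 with 14.5 and 16.4 RPKM. Dpf1 was above all 5 mature neuron markers in both replicates. It was below the median of detected loci in replicate 1 (21.6 RPKM) and above it in replicate 2 (15.7 RPKM). The young neuron markers, with the joined Nefl locus included, had higher sums than the progenitor markers in both replicates. Without the Nefl locus their sums were below those of the progenitor markers in both replicates. The part of cell composition in the pair differences was not tested. Markers of heart and skeletal muscle and of red blood cells were all detected too. They included Actc1 of the heart with 96.0 and 96.5 RPKM and the embryonic globin gene Hbb-y with 1746 and 6474 RPKM.

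**Figure D2:**
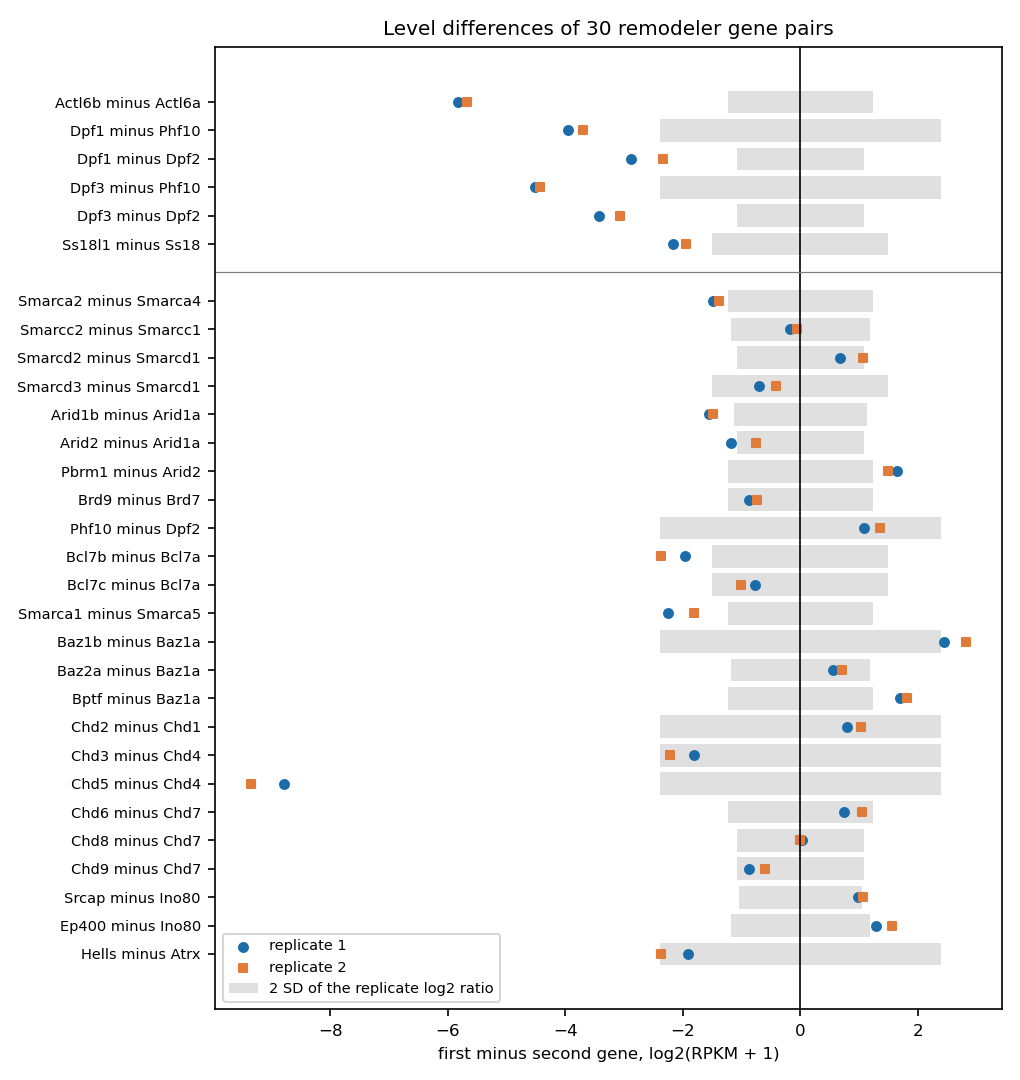
Difference in log2(RPKM + 1) of the first minus the second gene for the 6 neuronal minus progenitor pairs (above the line) and 24 other pairs, with 1 point per replicate and a grey band of 2 SD of the replicate log2 ratio at that level. All 6 neuronal pairs lie left of their band, and 9 of the other 24 pairs lie outside theirs by their mean.

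The catalytic subunits of BAF were both present, with Smarca4 higher. Smarca2, or BRM, had 57.7 and 56.9 RPKM. Smarca4, or BRG1, which the early mouse embryo cannot do without, had 164 and 149.7 RPKM and did not overlap Smarca2. Smarca2 took 26.8% ± 1.06 (SD, n = 2) and Smarca4 73.2% ± 1.06 of the RPKM of the pair, and Smarca2 minus Smarca4 was called at -1.44 ± 0.08 on the log2 scale. The gap was wider by reads per kilobase of the longest coding transcript, at -2.87. By that measure Smarca2 had 18.1 and 18.5 and Smarca4 148 and 133 reads per kilobase at equal library size. The length that the deposited RPKM of Smarca2 implied was 1557 and 1613 bases, against 4970 bases for its longest coding transcript without the 3′ UTR.

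Among the core subunits Smarce1 had the highest RPKM, as given above. Smarcb1, the BAF47 subunit lost in rhabdoid tumours, had 80.0 and 67.0 RPKM. The scaffold paralogues were level with each other, at 59.4 and 62.4 RPKM for Smarcc2 (BAF170) and 67.5 and 65.3 RPKM for Smarcc1 (BAF155). Their difference of -0.12 ± 0.08 lay within the limit of 1.18, and their shares were 47.8% ± 1.46 and 52.2% ± 1.46. Equal levels are not shown by this, since a difference up to the limit could not be told from the spread. By reads per kilobase of the longest coding transcript, Smarcb1 had 158 and 122, higher than its RPKM, and Smarce1 had 199 and 211, so the gap between them was smaller by that measure.

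Of the BAF60 paralogues, Smarcd2 had 90.8 and 106 RPKM, Smarcd3 34.4 and 37.7 RPKM and Smarcd1 56.7 and 50.5 RPKM. The 3 ranges did not overlap, yet neither Smarcd2 minus Smarcd1 (0.86 ± 0.27) nor Smarcd3 minus Smarcd1 (-0.56 ± 0.21) was called. The order of Smarcd2 and Smarcd1 turned when levels were taken per kilobase of the longest coding transcript, with a difference of -0.17. By that measure Smarcd3 minus Smarcd1 was called at -1.01, and by CPM it was 0.0047. Smarcd3, known in the mouse for its role in heart formation, lay in a locus that also holds the protein-coding gene Chpf2, and Smarcd1 shared its locus with Gm17349. Of the small BCL7 subunits, Bcl7b had 9.45 and 6.47 RPKM, Bcl7c 23.0 and 18.2 RPKM and Bcl7a 39.8 and 37.6 RPKM. Bcl7b minus Bcl7a was called at -2.17 ± 0.29 and Bcl7c minus Bcl7a was not, at -0.89 ± 0.17. That difference widened to -1.89 per kilobase of the longest coding transcript and was called there.

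Of the 11 subunits that set a BAF complex apart, 8 were lower in replicate 2 than in replicate 1. Their median log2 ratio was -0.37, near the -0.36 of all detected loci. Arid1a, Arid1b, Arid2, Pbrm1, Dpf2 (-0.37) and Ss18 (-0.39) were lower in replicate 2. Dpf3, Brd7 and Phf10 had ratios near 0 (-0.01, 0.09 and -0.10), and Brd9 (0.24) and Dpf1 (0.16) were higher. The ARID subunits of canonical BAF were Arid1b with 54.6 and 27.1 RPKM and Arid1a with 163 and 78.1 RPKM. Both were lower in replicate 2, and within each replicate Arid1b lay below Arid1a by nearly the same amount, so that Arid1b minus Arid1a was called at -1.53 ± 0.05. Arid2, the ARID subunit of PBAF, had 71.1 and 45.8 RPKM. Arid2 minus Arid1a was not called, at -0.97 ± 0.30, and turned to 0.10 per kilobase of the longest coding transcript. Without replicate 2 it was -1.19 and was called.

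Pbrm1, the polybromo subunit of PBAF, had 224 and 130.4 RPKM and was above Arid2 in both replicates. Pbrm1 minus Arid2 was called at 1.57 ± 0.11. Brd9, which marks the non-canonical BAF complex, had 75.4 and 89.0 RPKM, against 139 and 149 RPKM for Brd7 of PBAF. Brd9 minus Brd7 was not called, at -0.81 ± 0.10, although the ranges did not overlap, and it narrowed to -0.37 per kilobase of the longest coding transcript. Brd9 lay in the only locus of the 45 with a single transcript, and there the implied length was 1850 bases in both replicates. Phf10 of PBAF was above Dpf2 of canonical BAF, but Phf10 minus Dpf2 (1.22 ± 0.19) was not called.

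**Figure D3:**
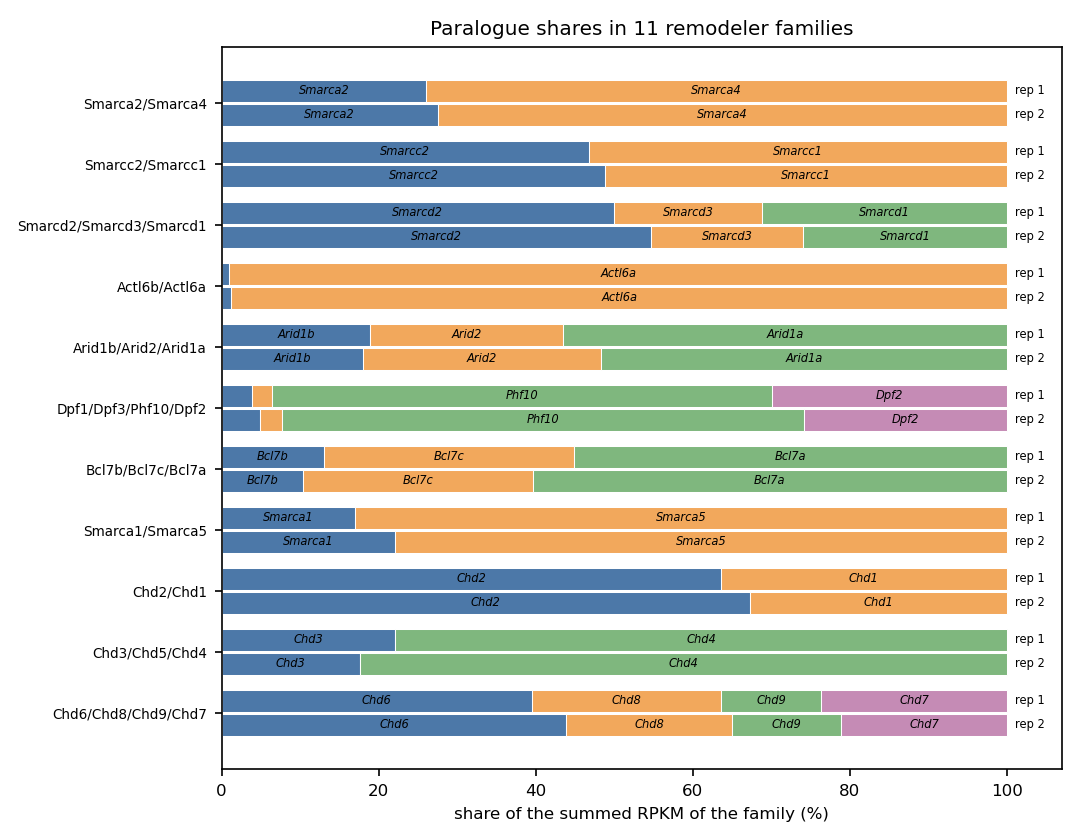
Share (percent) of the summed RPKM of each of 11 paralogue families taken by its members, with 1 bar per replicate. Actl6a takes nearly all of its family, Smarcc2 and Smarcc1 take close to equal shares, and the same gene leads in both replicates in 11 of 11 families.

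The ISWI enzymes and their partners were all detected. Smarca1, or SNF2L, had 40.7 and 56.3 RPKM, against 198 and 199 RPKM for Smarca5, or SNF2H, the ISWI ATPase of dividing cells. Smarca1 minus Smarca5 was called at -2.03 ± 0.32, but the gap shrank to -0.88 and lost the call per kilobase of the longest coding transcript. Smarca1 took 19.5% ± 3.54 (SD, n = 2) and Smarca5 80.5% ± 3.54 of their RPKM. Among the large partner subunits, Baz1b, the WSTF subunit deleted in Williams syndrome in humans, had 323 and 310.2 RPKM. Bptf, the largest subunit of NURF, which reads methylated H3K4, had 191 and 153 RPKM. Baz2a, the TIP5 subunit that silences ribosomal RNA genes, had 86.0 and 70.7 RPKM. Baz1a, the ACF1 subunit, was lowest of the 4 with 58.5 and 43.0 RPKM. Baz1b minus Baz1a was called at 2.63 ± 0.27 and Bptf minus Baz1a at 1.75 ± 0.08, whereas Baz2a minus Baz1a was not, at 0.63 ± 0.11. Per kilobase of the longest coding transcript Bptf minus Baz1a fell short of a call at 0.89 and Baz2a minus Baz1a turned to -1.07. The Baz2a locus also holds the protein-coding gene Ptges3 and the Baz1a locus holds Gm20403, so the reads of each cannot be split.

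The CHD family spanned the widest range of any group, from Chd5 below 1 RPKM to Chd4 at 1059 RPKM in replicate 2. Of the NuRD ATPases, Chd3 had 205 and 226 RPKM. Chd5, which in mouse is known from brain and testis, rested on 61 and 262 reads, with 95% Poisson intervals of 0.488 to 0.820 and 0.552 to 0.706 RPKM. Chd4 rested on 20377 and 140335 reads, and neither gene overlapped it. Chd3 took 19.8% ± 3.15 (SD, n = 2) of the RPKM of the 3 genes, Chd5 0.0586% ± 0.014 and Chd4 80.1% ± 3.17. Chd5 minus Chd4 was called at -9.07 ± 0.39. Chd3 minus Chd4 was not called, at -2.02 ± 0.29, since the limit for loci over 221 RPKM was 2.39. It narrowed to -1.32 per kilobase of the longest coding transcript. That limit was the widest of 20 level groups, the others lying between 0.887 and 1.50. When the spread was taken from protein-coding loci alone, Chd3 minus Chd4 was called.

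Chd2 and Chd1, which bind at active genes, had 213 and 238 RPKM for Chd2 and 123 and 116 RPKM for Chd1. Chd2 minus Chd1 was not called, at 0.91 ± 0.17, and it turned to -0.20 per kilobase of the longest coding transcript. The remaining CHD genes were nearer to each other. Chd6 had 169 and 156 RPKM, Chd8, linked to autism in humans, 103 and 75.0 RPKM, and Chd9 54.6 and 49.6 RPKM. Chd7, whose loss causes CHARGE syndrome in humans, had 101 and 75.4 RPKM. None of the 3 differences from Chd7 was called, at 0.89 ± 0.22 for Chd6, 0.01 ± 0.02 for Chd8 and -0.74 ± 0.20 for Chd9. Chd8 and Chd7 overlapped and their order differed between replicates. Per kilobase of the longest coding transcript Chd6 minus Chd7 turned to -0.05 and Chd9 minus Chd7 was called at -1.24, and Chd6 took 29.8% ± 1.86 against 30.7% ± 0.32 for Chd7 there.

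In the INO80 family the ATPase Ino80 itself was lowest. Srcap, which exchanges H2A for H2A.Z, had 63.3 and 45.8 RPKM, and Ep400, the ATPase of the TIP60 complex, had 78.5 and 65.0 RPKM. Ino80 had 31.8 and 21.3 RPKM, and both others lay above it in each replicate. Srcap minus Ino80 was just short of a call, at 1.02 ± 0.07 against a limit of 1.04, and passed it without replicate 1, at 1.07, and per kilobase of the longest coding transcript, at 1.23. Ep400 minus Ino80 was called at 1.42 ± 0.20 but not per kilobase of the longest coding transcript, where it was 0.66. Hells, or LSH, which works in DNA methylation of repeats, had 204 and 164 RPKM. Hells minus Atrx was -2.14 ± 0.33, within the limit of 2.39, and narrowed to -0.83 per kilobase of the longest coding transcript.

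Of the 24 pairs outside the neuronal exchange, 9 were called, a smaller share than the 66.7% of all pairs of detected loci. The 9 were Smarca2 minus Smarca4, Arid1b minus Arid1a, Pbrm1 minus Arid2, Bcl7b minus Bcl7a, Smarca1 minus Smarca5, Baz1b minus Baz1a, Bptf minus Baz1a, Chd5 minus Chd4 and Ep400 minus Ino80. The count was 14 with the spread of protein-coding loci and 4 by CPM, counts scaled to their library sum with no division by length. By CPM the pairs that lost the call were Arid1b minus Arid1a, Pbrm1 minus Arid2, Smarca1 minus Smarca5, Baz1b minus Baz1a, Bptf minus Baz1a and Ep400 minus Ino80, and Bcl7c minus Bcl7a gained it. The CPM limit was 2.46 for the pairs that lost it, except Smarca1 minus Smarca5 with 1.14. Ep400 minus Ino80 (1.55) and Bptf minus Baz1a (1.78) were no smaller than by RPKM, where their limits were 1.18 and 1.24. Arid1b minus Arid1a (-1.48), Pbrm1 minus Arid2 (1.06), Smarca1 minus Smarca5 (-0.99) and Baz1b minus Baz1a (2.30) were smaller by CPM. The count was 4 of 12 among pairs of which both genes have a locus of their own.

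Other genes of the same complexes were read beside the 45. Of 51 such genes 50 were detected, against 49.4% of all loci and 65.1% of protein-coding loci. Their medians were 58.1 and 46.5 RPKM. In 45 of the 51 the level was 10 RPKM or more in both replicates, a count with no computed share of all loci beside it. Cdca7, the partner of Hells, had the highest mean RPKM, with 444 and 402 RPKM. Ino80e of the INO80 complex followed with 392 and 397 RPKM in a locus that also holds Hirip3. The NuRD deacetylase Hdac2 had 290 and 439 RPKM and was above both in replicate 2. Per kilobase of the longest coding transcript Hdac2, with 258 and 390.1, and Rbbp4, with 361.5 and 302, were above Cdca7, with 249 and 211. Rbbp4 was named after its values were seen. The exception below 1 RPKM was Bcl6, a repressor found with BAF, at 0.734 and 0.365 RPKM. Of the 8 NuRD partners all were detected, with medians of 79.2 and 68.2 RPKM, and so were all 7 ISWI and chromatin assembly partners, with medians of 157 and 160.1 RPKM. Of the 6 BAF partners 5 were detected, with lower medians of 8.57 and 5.69 RPKM.

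Between replicates, 1 of the 45 genes differed 2-fold or more on the log2(RPKM + 1) scale, against 9.86% of all detected loci and 5.04% of detected protein-coding loci. It was Arid1a, with a log2 ratio of replicate 2 to replicate 1 of -1.05. By direction, 6.92% of detected loci were 2-fold or more lower in replicate 2, where Arid1a stood, and 2.94% were 2-fold or more higher, where none of the 45 genes stood. Which gene passed depended on the scaling. It was Arid1b in place of Arid1a by CPM, Chd4 (higher in replicate 2) with the replicates rescaled to the same median, and none per kilobase of the longest coding transcript. Arid1b followed at -0.98 and Pbrm1 at -0.78, and the largest ratio above 0 was that of Chd4 at 0.54. In all, 30 of the 45 were lower and 15 higher in replicate 2, with a median log2 ratio of -0.10. Of all detected loci 13381 of 17090 were lower, with a median of -0.36. Of the 22 remodeler genes with a coding transcript over 3648 bases, 18 were lower in replicate 2, with a median of -0.20. Of the 23 at or below that length 12 were lower, with a median of -0.01. Of detected protein-coding loci, 1312 of 1478 above that length were lower, with a median of -0.42, and 8893 of 11058 at or below it, with a median of -0.35. Per kilobase of the longest coding transcript, 16 of the 22 longer and 13 of the 23 shorter remodeler genes were lower. Sequencing depth moved with these values. Replicate 2 had 6.42 times the summed counts of replicate 1, and 5.68 times its library size as implied by the RPKM. So did red blood cell RNA, with Hbb-y 1746 RPKM in replicate 1 and 6474 RPKM in replicate 2. The part of either in the replicate ratios was not tested.

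The length behind the RPKM affects every comparison between genes. For coding loci with 1 transcript and over 200 reads, the length implied by reads and RPKM was within 1% of the 5′ UTR plus the coding sequence in 60.8% of 1682 loci, and within 1% of the whole transcript in 2.62%. The 3′ UTR was thus left out of the length at most of these loci. Whether reads in it were counted is not given in the sources used here. For loci with several transcripts the implied length differed between replicates, as for Chd4 with 2047 and 1700 bases against 6107 bases in its longest coding transcript. Of the 45 genes, 10 had an RPKM over 2 times the level per kilobase of the longest coding transcript in both replicates. The share of all loci that did so was not computed, so this count is not a trait of the remodeler genes. Chd4 had 243 and 295, Atrx 256 and 298, Smarce1 199 and 211 and Baz1b 247 and 266 reads per kilobase, scaled to library size, by that measure. Chd4, Atrx and Smarce1 thus no longer stood apart from the rest by it, Baz1b lying among them. Across the 45 genes the measures had a Spearman rho of 0.904, which is a description, since both share the same reads.

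**Figure D4:**
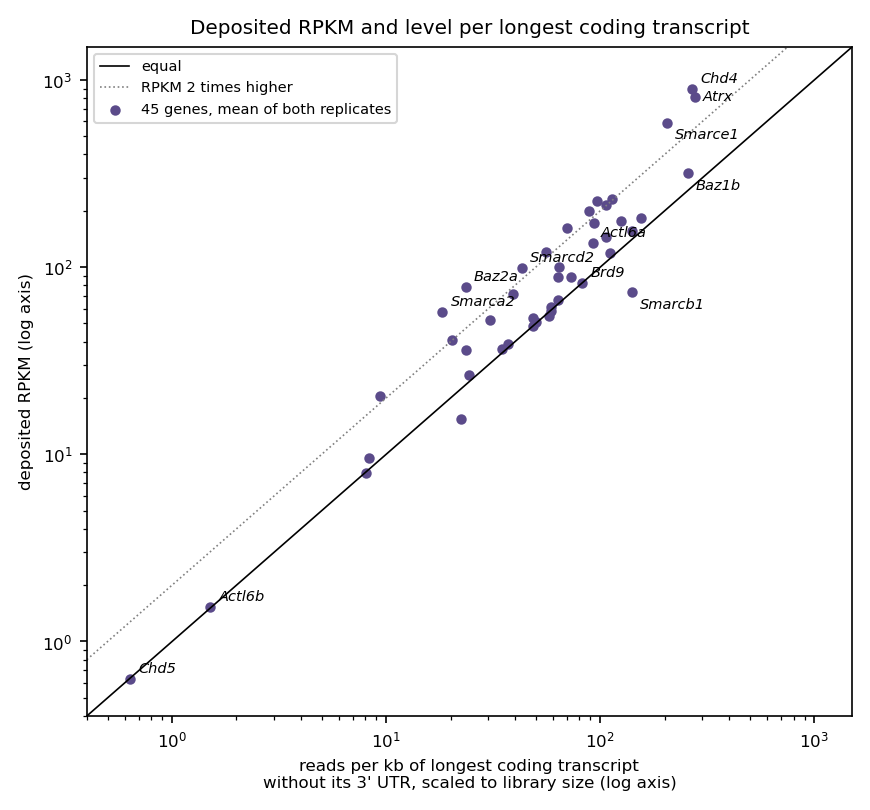
Deposited RPKM against reads per kilobase of the longest coding transcript without its 3′ UTR, scaled to library size (both log axes), with 1 point per remodeler gene as the mean of both replicates; the solid line marks equal values and the dotted line an RPKM 2 times higher. Chd4, Atrx, Smarce1 and Smarca2 lie above the dotted line, Actl6b and Chd5 lie near the solid line, and Smarcb1 lies below it.

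Reads of a joined locus cannot be split between its genes. Of the 45 loci 11 were joined, against 7.14% of all loci, 2015 of 17090 detected loci and 1889 of 12557 detected protein-coding loci. Of the 11, 5 were joined with another protein-coding gene (Smarcd1, Smarcd3, Phf10, Baz1a and Baz2a), a count with no computed share of all loci beside it. The others were Bcl7a with the antisense gene Gm15860, Bcl7c with Mir762, Chd5 with Gm13645, Ep400 with Gm26079, and Chd3 and Chd8 each with a gene that has no symbol in the table of names. For those 11 the level is that of the whole locus. Without them the median of the remaining genes was 93.3 RPKM over both replicates, against 78.3 RPKM for all 45.

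The promoters of the remodeler genes were rich in CG. RefSeq gave 41 promoters for 36 of the 45 genes, with a median of 31 CG per 300 bases, against 7 for all 32851 promoters. All promoters were taken without regard to detection or level. No set of promoters matched to the remodeler genes by level was computed, so the contrast cannot be called particular to them. The letters GGGCGG on either strand, which themselves hold a CG, were in 92.7% of the 41 and in 35.7% of all promoters. The letters TATAAA on either strand were in 2.44% of the 41 and in 13.6% of all promoters, and the letters ATTGG in 29.3% and 37.4%. No correlation of CG count with level was computed, and the genes named next are examples. The promoters of Chd5 held 33 and 32 CG at a mean of 0.632 RPKM, whereas that of Atrx held 11 CG at a mean of 810.5 RPKM. Fewer CG than in Atrx were held by Smarcd2, with 4 CG at a mean of 98.5 RPKM, and Smarca1, with 9 CG at 48.5 RPKM. A promoter of Chd9 held 1 CG at a mean of 52.1 RPKM. Phf10 had the most, with 62 CG at a mean of 232 RPKM.

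**Figure D5:**
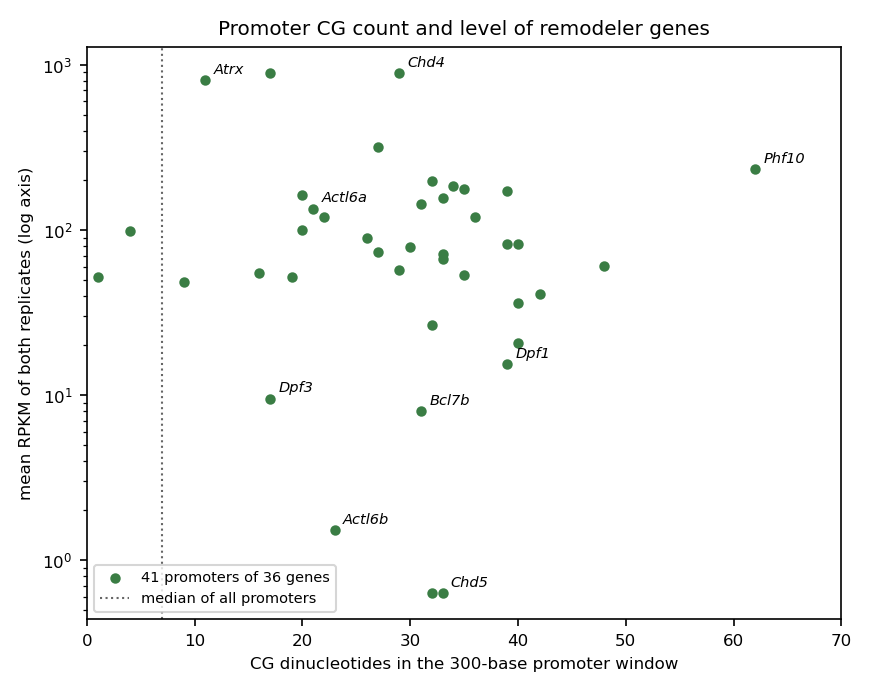
CG dinucleotides in the 300-base promoter window against mean RPKM of both replicates (log axis), with 1 point for each of 41 promoters of 36 genes; the dotted line marks the median of all promoters. Nearly all points lie right of the line at 7, including Actl6b with 23 CG and Chd5 with 33 and 32 CG.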

How the data were processed

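Total RNA of 2 whole-embryo replicates was sequenced on an Illumina instrument. Reads were aligned with TopHat to mm9, per the submitters' processing notes. The sources used here name no read counter, annotation or strand setting (not given in the sources used here). The authors deposited RPKM and whole-number read counts per locus, per the file headers. RPKM was the main unit. CPM, computed here from the deposited counts, was an alternative. No count test was run, since there is 1 group.

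The 34676 rows were summed by their set of identifiers into 34624 loci, and 32642 of 37681 identifiers (86.6%) had a symbol. Log values used a pseudocount of 1, which understates differences of low genes. The replicate spread came from 20 groups of equal size over loci with a mean of 1 RPKM or more, ordered by level. Poisson intervals (95%) cover counting error only. An alternative length, the longest listed coding transcript without its 3′ UTR, came from GENCODE vM21 and matched 286 of 321 transcripts. It was added after seeing the data, as was the spread from protein-coding loci. The library sizes used with it, 13712000 and 77921000 reads, were those implied by loci with 1 transcript. They are smaller than the summed counts of 18318181 and 117522171, by which CPM was scaled. The reason for that gap is not given in the sources used here. The procedure was tested on simulated data. Python 3.11.15, pandas 2.3.3, numpy 2.4.6 and scipy 1.17.1 were used.

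The genes, pairs and lists were chosen with earlier results of these data known. Named genes were all 45, the genes of the pairs, the 3 highest and the lowest companion, any companion under 1 RPKM, and the cell type markers.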

Additional observations from a re-analysis of the deposited data

How the results depend on the processing

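The 6 neuronal pairs were called with the neuronal gene lower under every alternative run, and in 4 of 4 pairs with a locus of their own. By CPM Dpf1 minus Dpf2 passed only narrowly, at -1.40 against a limit of 1.36. The detected genes numbered 43 to 45 across the other minimums of 5 and 0.3 RPKM. The median of 78.3 RPKM over the 45 genes ranged from 70.7 to 80.0 when either replicate was left out, was 93.3 without joined loci, and 59.2 per kilobase of the longest coding transcript. The 9 other pairs called became 10 without either replicate, 4 by CPM, 14 with the protein-coding spread and 4 of 12 with own loci. The same gene led in 7 of 11 families per kilobase of the longest coding transcript and in 8 by CPM. Genes that differed 2-fold between replicates numbered 2 with a pseudocount of 0.1 and 0 per kilobase of the longest coding transcript, against 1.

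Reversed differences by CPM were Smarcd2 minus Smarcd1 -0.077, Smarcd3 minus Smarcd1 0.0047, Baz2a minus Baz1a -0.89, Chd2 minus Chd1 -0.10, Chd6 minus Chd7 -0.23 and Chd8 minus Chd7 -0.46. Per kilobase of the longest coding transcript they were Smarcd2 minus Smarcd1 -0.17, Arid2 minus Arid1a 0.10, Baz2a minus Baz1a -1.07, Chd2 minus Chd1 -0.20, Chd6 minus Chd7 -0.048 and Chd8 minus Chd7 -0.20. Chd8 minus Chd7 was -0.0065 without replicate 1 and 0.029 without replicate 2. CPM is not divided by length, and the cause of the other changes was not tested. Samples could not be paired across conditions because there is only 1 group, while the gene differences were taken within each replicate. Actl6b rested on 27 reads in replicate 1, which limits its precision.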
